A study of Mus musculus with 21 samples.

Results

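The presynaptic active zone scaffold genes are the 10 genes Bsn, Pclo, Rims1, Rims2, Rimbp2, Unc13a, Unc13b, Erc1, Erc2 and Ppfia3, out of 16318 genes with counts in the whole brains of SAMP8 mice. They were taken by name from the table of counts, as a family of long scaffold genes, and were chosen by the difference in their counts between treated and untreated mice, since Bsn was known to be among the largest increases. The treatment difference is therefore given for them as a description, and how many of them passed the threshold used for all genes is stated only beside the share of all genes that did. Each of the 10 names matched 1 gene, all 10 passed the low-count filter of edgeR together with 16303 genes in all, and all 10 had at least 10 counts in every mouse.

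The study asked how the brain transcriptome of SAMP8 mice differs after dosing with HsTX1[R14A], a peptide that blocks the potassium channel Kv1.3. SAMP8 is an inbred senescence-accelerated mouse strain, and all 21 mice analysed here are SAMP8, so the levels have no reference in a normally ageing strain. PBS (phosphate-buffered saline) was given to 12 mice (6 female, 6 male) and HsTX1[R14A], spelled HxTX1[R14A] in the sample titles, to 9 mice (3 female, 6 male). The peptide was dosed at 1 mg/kg under the skin every other day for 8 weeks, the mice were 6 months old at the end, and each library holds the RNA of the whole brain of 1 mouse.

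The active zone is the patch of presynaptic membrane where synaptic vesicles dock and fuse when calcium enters the terminal. Its scaffold is built of large multidomain proteins that bind each other. Bassoon and Piccolo span the zone and tether vesicles, RIM proteins and RIM-binding proteins hold calcium channels beside the docked vesicles, Munc13 proteins make vesicles ready to fuse, and ELKS/CAST and liprin-alpha proteins anchor the complex. These proteins are made in neurons, though not all of them only there (ELKS is made in many tissues). Their mRNAs are among the long transcripts of the brain.

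Total counts ran from 14917174 to 47613792 per library, and at this depth the spread between mice, more than the sampling of reads, set the error of the scaffold genes. Levels are in CPM, counts relative to the size of the library, scaled by TMM, a factor that corrects for library composition. Long and short transcripts were represented unequally from library to library. As a measure of this, the length slope of a library is the slope of a straight line through its log2 CPM values, each centred on that gene's mean over all mice, against log2 transcript length (longest annotated transcript, the 10 genes left out). It lay between -0.38 and 0.15 in PBS mice (median -0.02) and between -0.14 and 0.23 in HsTX1[R14A] mice (median 0.15). Mitochondrially encoded genes took 9.33 to 20.2% of counts in PBS mice and 7.13 to 13.5% in HsTX1[R14A] mice. The library names come in 2 forms, beginning with SAMP8 (10 PBS and 5 HsTX1[R14A] mice) or with SAMP (2 and 4 mice), and the labels do not say what sets them apart.

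The 4 genes with the largest differences were Bsn, Erc1, Unc13a and Pclo, and the bases before their start sites are shown as a description. Whether these bases bear on the differences was not tested. Sequences are from RefSeq on GRCm38.p6, and windows of 9 of the 10 genes were used here (Rims2 was not analysed). Each is the 250 bases before the start, on the strand of the gene, with capitals marking the searched motifs that were found.
Bsn: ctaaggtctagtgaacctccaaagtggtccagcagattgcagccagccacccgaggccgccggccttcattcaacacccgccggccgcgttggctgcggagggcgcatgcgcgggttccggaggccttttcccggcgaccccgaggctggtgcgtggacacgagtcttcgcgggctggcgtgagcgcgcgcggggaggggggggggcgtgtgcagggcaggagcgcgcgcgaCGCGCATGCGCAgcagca
Erc1: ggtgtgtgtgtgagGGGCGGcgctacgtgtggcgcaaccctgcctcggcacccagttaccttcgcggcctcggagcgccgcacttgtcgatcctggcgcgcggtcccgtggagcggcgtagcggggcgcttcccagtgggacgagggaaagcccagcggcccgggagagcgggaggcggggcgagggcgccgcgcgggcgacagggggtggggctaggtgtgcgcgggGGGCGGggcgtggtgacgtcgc
Unc13a: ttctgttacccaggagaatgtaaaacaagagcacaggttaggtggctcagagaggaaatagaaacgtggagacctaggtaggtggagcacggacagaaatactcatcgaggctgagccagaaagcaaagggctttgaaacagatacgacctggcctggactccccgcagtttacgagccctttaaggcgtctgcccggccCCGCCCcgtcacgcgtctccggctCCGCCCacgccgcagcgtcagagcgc
Pclo: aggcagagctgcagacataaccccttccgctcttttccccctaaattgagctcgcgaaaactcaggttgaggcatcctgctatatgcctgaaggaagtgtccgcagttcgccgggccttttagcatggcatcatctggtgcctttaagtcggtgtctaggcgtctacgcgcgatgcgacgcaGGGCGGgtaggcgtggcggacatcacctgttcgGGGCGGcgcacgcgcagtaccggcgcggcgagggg
The windows lie at chr9:108190384-108190633 on the minus strand (Bsn), chr6:119848151-119848400 on the minus strand (Erc1), chr8:71671758-71672007 on the minus strand (Unc13a) and chr5:14514668-14514917 on the plus strand (Pclo). The starts are those of RefSeq, and the window of Erc1 overlaps the gene span given below, which ends at 119848167. Motifs were searched on both strands, by their exact letters or, for NRF1, by its consensus, which allows C or T at some positions and A or G at the last, and the motifs share no bases with each other in these 4 windows. The GC box (GGGCGG) was found upstream of 6 of the 9 genes, the 3 named here other than Bsn among them, and in 32.7% of the 32817 promoter windows of the same length. Bsn instead held the NRF1 motif, which 0.999% of all windows and none of the other 8 held. The cyclic AMP response element (TGACGTCA, 1.55% of windows) and the TATA box (TATAAA, 12.4%) were found in 0 of the 9, the CCAAT box (CCAAT, 33.8%) in 3 and the E-box (CACGTG, 6.02%) in 1. Rims1 counts among the genes with a GC box and Erc2 among those with a CCAAT box. For Rims1 and Erc2 the bases just after the start were not found at the beginning of an annotated transcript. The Bsn window was 71.6% G and C and the Erc1 window 76.0%, above 92.7% and 96.7% of all windows, against 58.0% for Unc13a and 61.2% for Pclo.

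All 10 genes are protein coding and long. On GRCm38 the longest annotated transcript was 20084 bases for Pclo (chr5:14514918-14863459, plus strand), 15938 for Bsn (chr9:108096022-108190384, minus strand), 14754 for Unc13b (chr4:43058953-43264871, plus) and 10255 for Unc13a (chr8:71624417-71671757, minus). It was 8760 bases for Erc1 (chr6:119570796-119848167, minus), 6966 for Rimbp2 (chr5:128757791-128953486, minus), 6446 for Rims1 (chr1:22286251-22805994, minus) and 6233 for Erc2 (chr14:27622428-28478537, plus). The shortest were Ppfia3 with 4893 bases (chr7:45339122-45367019, minus) and Rims2 with 4800 (chr15:39198261-39684372, plus), against a median of 3282 over all genes. Rims2 was thus longer than 76.0% of genes and Pclo than 99.9%. Gene bodies that also hold another counted gene were those of Pclo (4 genes of the annotation class TEC on its strand), Unc13a (Colgalt1, on the other strand) and Ppfia3 (the antisense gene Mtag2), so some of their reads could have been assigned to either gene.

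In PBS mice the scaffold genes were ordered by level per kilobase of longest transcript. This scale divides by length but does not remove the unequal representation of long and short transcripts between libraries. Ppfia3 stood highest with a median of 29.7 CPM per kb, followed by Rims1 (26.1), Erc2 (19.3), Unc13a (14.9), Rimbp2 (12.1), Rims2 (11.7), Pclo (8.29), Bsn (6.76), Erc1 (3.19) and Unc13b (1.64). Rimbp2 and Rims2 did not differ beyond the spread between mice, with a mean difference of 0.01 ± 0.53 in log2 CPM per kb (SD, n = 12) and Rimbp2 higher in 5 of 12 mice (exact sign-flip permutation test, two-sided, p = 0.928). The other 8 of the 9 neighbouring pairs differed with adjusted p from 0.00146 to 0.0478 over the 9 pairs (the same exact permutation test, which can give no unadjusted p under 0.000488). The steps from Rims2 to Pclo, from Bsn to Erc1 and from Erc1 to Unc13b held in 12 of 12 mice. The order rests on the longest annotated transcript of each gene, and the transcripts actually made in these brains were not measured here. It also moved with the library: in PBS mouse 84 Bsn stood at 17.8 and Pclo at 11.8 CPM per kb. In HsTX1[R14A] mice the median was 19.9 CPM per kb for Bsn and 13.3 for Pclo.

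The genes also differed in how much they varied between untreated mice. Over the 12 PBS mice the SD of log2 CPM was 0.89 for Bsn, larger than for 97.2% of the genes tested, and it was 0.70 for Unc13a, 0.65 for Rimbp2 and 0.61 for Erc1. It was 0.12 for Erc2, and the median over all genes tested was 0.30. Bsn thus ran over a 9.17-fold range within the PBS group, Erc2 over a 1.33-fold range. PBS mouse 103 held the lowest PBS value of 9 of the 10 genes, Erc2 being the exception, and it also had the lowest length slope and the smallest library (14917174 counts).

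Bassoon (Bsn), the giant scaffold protein that spans the active zone, was higher in HsTX1[R14A] mice. Its level in PBS mice was 30.9 CPM at the lowest, 108 at the median and 283 at the highest, and in HsTX1[R14A] mice 72.2, 317 and 404 CPM. The groups overlapped, with 8 of 9 HsTX1[R14A] mice above the PBS median and 5 above every PBS mouse. The means were 119 ± 72.6 CPM (SD, n = 12) and 278 ± 120 CPM (SD, n = 9), and the fitted log2 fold change with sex in the model was 1.32 ± 0.31 (SE), or 2.49-fold. The 3 HsTX1[R14A] females lay together at 350, 400 and 404 CPM, while the 6 males of that group ran from 72.2 to 377 CPM.

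Piccolo (Pclo), the relative of Bassoon with a shared place in the scaffold, was higher by less. It ran from 101 CPM over a median of 166 to 237 CPM in PBS mice and from 143 over 268 to 327 CPM in HsTX1[R14A] mice. The log2 fold change was 0.56 ± 0.14, with 8 of 9 HsTX1[R14A] mice above the PBS median and 5 above the PBS maximum.

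Of the genes that anchor and organise the complex, Erc1 (ELKS), made in many tissues, and Erc2 (CAST), its brain counterpart, moved unequally. Erc1 ran from 10.9 CPM over a median of 27.9 to 43.7 CPM in PBS mice and from 24.4 over 48.9 to 53.2 CPM in HsTX1[R14A] mice, with 6 of 9 above every PBS mouse. Its log2 fold change was 0.78 ± 0.20. Erc2 stayed in a narrow band, from 106 over 120 to 141 CPM in PBS mice and from 113 over 133 to 149 CPM in HsTX1[R14A] mice, with a log2 fold change of 0.14 ± 0.07. For Erc2 3 of 9 HsTX1[R14A] mice lay above every PBS mouse. HsTX1[R14A] mouse 93, which held the lowest value of its group for 7 of the 10 genes, held the highest for Erc2. Ppfia3, a liprin-alpha expressed in brain, ran from 65.1 over 145 to 181 CPM in PBS mice and from 115 over 160 to 178 CPM in HsTX1[R14A] mice, with a log2 fold change of 0.13 ± 0.13.

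The priming factor Munc13-1 (Unc13a), which is needed for release at most excitatory synapses, ran from 50.7 CPM over a median of 153 to 257 CPM in PBS mice and from 105 over 231 to 366 CPM in HsTX1[R14A] mice. Its log2 fold change was 0.65 ± 0.23, and 8 of 9 HsTX1[R14A] mice lay above the PBS median but only 2 above the PBS maximum. Munc13-2 (Unc13b), the lowest of the 10 per kilobase, ran from 10.9 over 24.2 to 34.0 CPM and from 21.4 over 25.3 to 39.1 CPM, with a log2 fold change of 0.35 ± 0.16. For Unc13b 5 of 9 HsTX1[R14A] mice lay above the PBS median, and 3 of these were the 3 females (32.4, 32.8 and 39.1 CPM).

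The RIM proteins bind vesicles through Rab3 and recruit calcium channels. Rims1, which had the smallest difference of the 10, ran from 80.5 over 169 to 226 CPM in PBS mice and from 133 over 174 to 221 CPM in HsTX1[R14A] mice, with a log2 fold change of 0.03 ± 0.13 and 0 of 9 mice above the PBS maximum. Rims2 ran from 36.6 over 56.3 to 67.6 CPM and from 52.0 over 61.9 to 72.1 CPM, with a log2 fold change of 0.14 ± 0.09. Their binding partner Rimbp2, which links RIM to calcium channels, ran from 32.6 over 84.5 to 157 CPM and from 73.2 over 113 to 164 CPM, with a log2 fold change of 0.41 ± 0.22. The groups overlapped in all 3 of these genes. Above the PBS median lay 5 of 9 HsTX1[R14A] mice for Rims1 and 8 of 9 for Rims2 and for Rimbp2. For Rims2 and for Rimbp2 1 of 9 lay above every PBS mouse. Below every HsTX1[R14A] mouse lay 1 of 12 PBS mice for Rims1, 4 for Rims2 and 5 for Rimbp2.

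**Figure D1:**
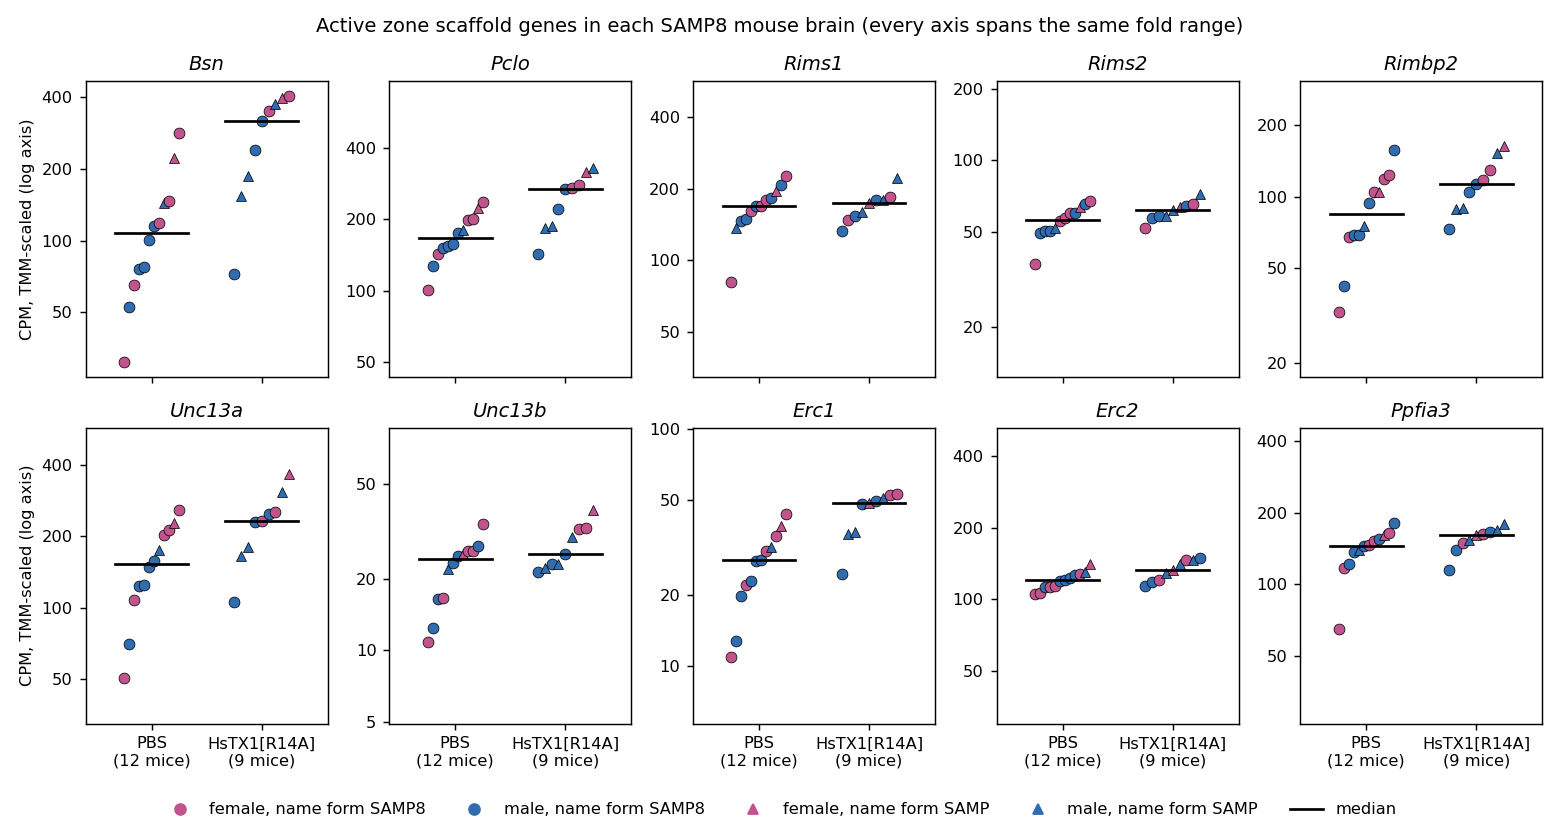
Level of each of the 10 scaffold genes in each mouse, in TMM-scaled CPM on log axes that all span the same fold range, for 12 PBS and 9 HsTX1[R14A] mice; the colour gives the sex, the symbol the form of the library name and the bar the group median. The HsTX1[R14A] values of Bsn, Pclo and Erc1 lie mostly in the upper part of the PBS range or above it, with 5, 5 and 6 of 9 mice above every PBS mouse. Those of Rims1 and Erc2 lie within the PBS range or close to it, with 0 and 3 of 9 mice above every PBS mouse.

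All 10 log2 fold changes were above 0, with a median of 0.38, against a median of -0.01 over all 16303 genes tested and of 0.22 over the 3891 genes whose longest transcript is at least as long as that of Rims2, the shortest of the 10. Above 0 were 48.6% of all genes tested and 75.6% of those 3891 genes. With edgeR's quasi-likelihood test and p-values adjusted over all genes (Benjamini-Hochberg), Bsn, Pclo, Erc1 and Unc13a were among the genes at or below an adjusted p of 0.05. That is 4 of 10 higher and 0 lower, where 31.6% of all genes tested were called, 15.5% higher and 16.1% lower. Among the 3891 long genes 38.6% were called, 33.7% higher and 4.86% lower. Because the treatment difference was used in choosing the genes, nothing is read from the count. At the threshold, Unc13a was the gene just inside (log2 fold change 0.65) and Unc13b just outside (0.35). The count moved with single mice. Unc13a was among the called genes in 11 of the 21 fits that left out 1 mouse, Rimbp2 (log2 fold change 0.57) joined them without PBS mouse 83, and Erc2 (0.17) joined them without PBS mouse 104. The log2 fold change of Bsn ran from 1.20 to 1.44 over these fits.

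The treatment difference rose with transcript length over all genes. The median log2 fold change was -0.45 in the 987 genes with transcripts up to 1000 bases, -0.08 between 2000 and 3000 bases, 0.17 between 5000 and 7000 bases and 0.38 in the 394 genes above 10000 bases. In that longest class 86.0% of genes had a log2 fold change above 0 and 47.7% were called higher, and it holds Pclo (0.56), Bsn (1.32), Unc13b (0.35) and Unc13a (0.65). Erc1 (0.78) was the 1 scaffold gene between 7000 and 10000 bases, where the median was 0.27. Rimbp2 (0.41) stood above and Erc2 (0.14) and Rims1 (0.03) below the median of their class between 5000 and 7000 bases. Ppfia3 (0.13) and Rims2 (0.14) lay near the 0.09 of theirs.

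**Figure D2:**
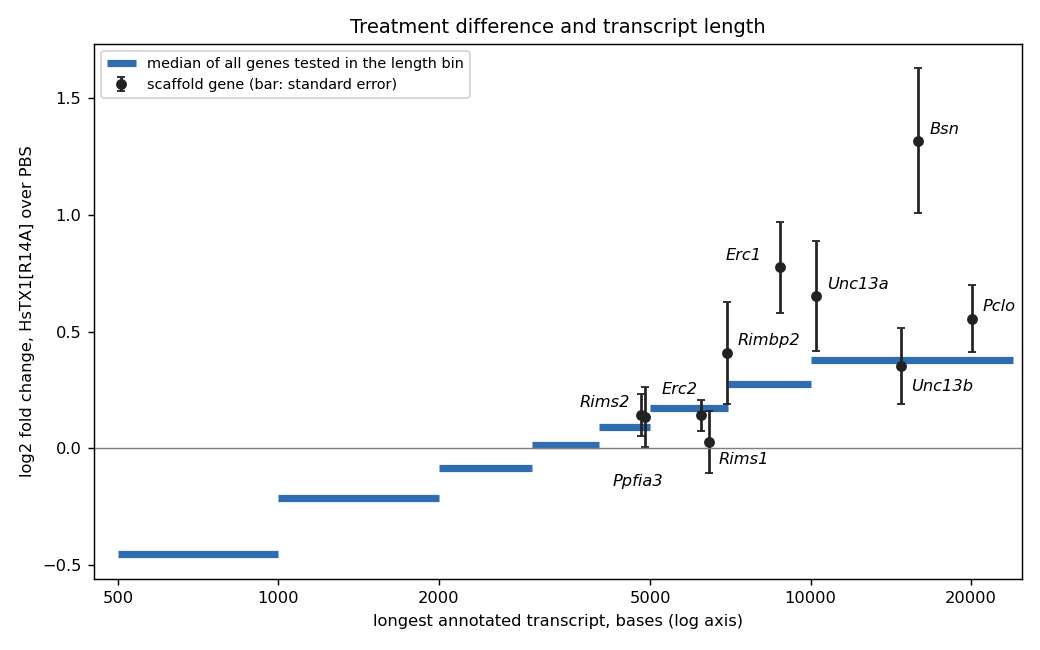
Log2 fold change between HsTX1[R14A] and PBS mice against the length of the longest annotated transcript on a log axis; blue bars give the median of all genes tested in a length class (the first class begins at 0 and the last has no upper end) and points the 10 scaffold genes with their standard errors. The class medians climb from -0.45 to 0.38, and Bsn (1.32), Erc1 (0.78) and Unc13a (0.65) lie above the median of their class while Unc13b (0.35) lies on it.

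Levels of the scaffold genes followed the length slope of the library also within the PBS group, where treatment does not vary. Over the 12 PBS mice the Pearson correlation of log2 CPM with the length slope was 0.993 for Erc1, 0.974 for Unc13a, 0.947 for Pclo and 0.932 for Bsn (permutation test with 100000 resamples, two-sided, p = 1e-05 for each, the smallest these resamples can give, and 2.5e-05 adjusted over the 10 relations). Spearman's rho was 0.986 for Erc1 (permutation p = 1e-05, adjusted 1e-04), 0.937 for Unc13a (4e-05, adjusted 0.000133), 0.951 for Pclo (4e-05, adjusted 0.000133) and 0.923 for Bsn (8e-05, adjusted 0.0002). Without PBS mice 103 and 90, the 2 farthest from the median slope, r was 0.977 for Erc1, 0.928 for Unc13a, 0.901 for Pclo and 0.888 for Bsn. Within the 10 PBS mice of the SAMP8 name form it was 0.996, 0.973, 0.949 and 0.936.

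The relation was looser or rested on those 2 mice in the other genes. Rimbp2 had r = 0.909 and rho = 0.874 (permutation p = 9e-05 and 0.00044, adjusted 0.00018 and 0.00088), Unc13b r = 0.883 and rho = 0.783 (permutation p = 0.00036 and 0.00386, adjusted 0.0006 and 0.00643) and Ppfia3 r = 0.802 and rho = 0.755 (permutation p = 0.00059 and 0.00565, adjusted 0.000843 and 0.00807). Their r fell to 0.730, 0.645 and 0.627 without the 2 farthest mice. For Rims2 r was 0.759 and rho 0.587 (permutation p = 0.00371 and 0.0488, adjusted 0.00464 and 0.0609), and for Rims1 r was 0.618 and rho 0.322 (permutation p = 0.0335 and 0.307, adjusted 0.0372 and 0.307). Without the 2 mice r was 0.487 for Rims2 and 0.02 for Rims1, so the relation of Rims1 rests on them. Erc2 had no detectable relation, with r = 0.281 and rho = 0.322 (permutation p = 0.375 and 0.306, adjusted 0.375 and 0.307), and r = 0.07 without the 2 mice. A straight line on the slope left a spread of 0.08 in log2 CPM for Erc1, whose SD over the PBS mice was 0.61, and of 0.34 for Bsn, whose SD was 0.89.

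**Figure D3:**
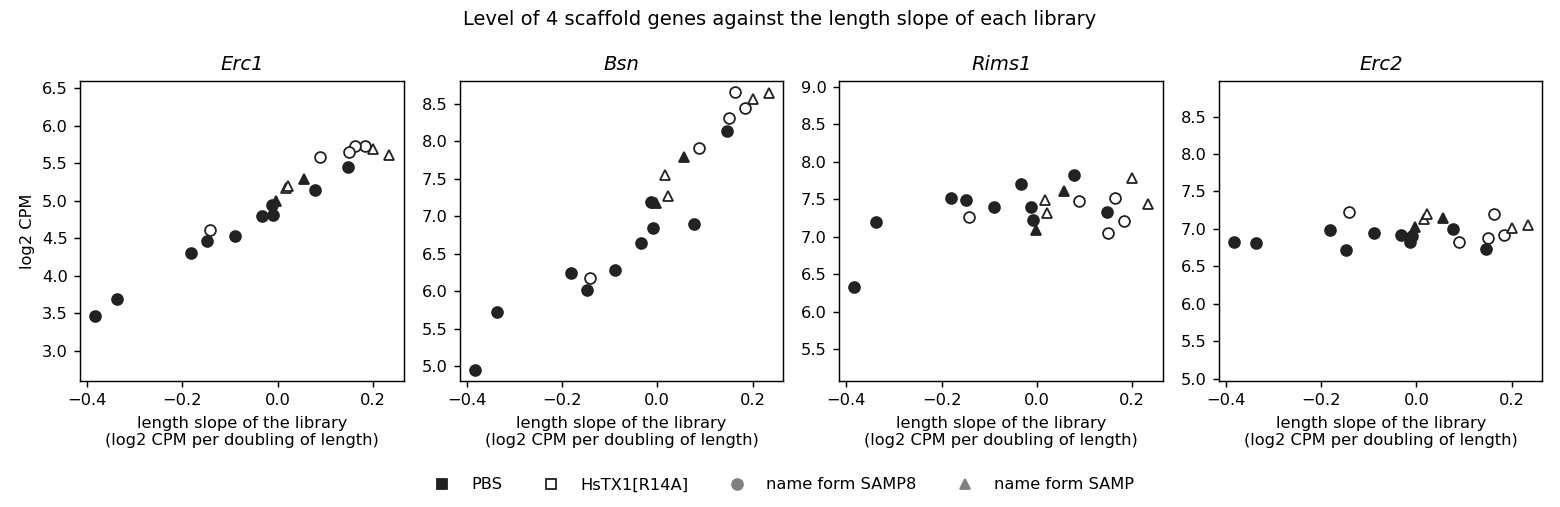
Log2 CPM of Erc1, Bsn, Rims1 and Erc2 in each library against that library's length slope, with filled symbols for the 12 PBS mice, open symbols for the 9 HsTX1[R14A] mice, circles for the SAMP8 and triangles for the SAMP name form; the vertical axes all span the same range. Erc1 and Bsn rise with the slope in both groups (r = 0.993 and 0.932 over the PBS mice), while Rims1 has r = 0.02 without the 2 farthest PBS mice and Erc2 has r = 0.281 over the 12.

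With the length slope of the library as a covariate, the treatment differences of the scaffold genes were smaller or changed sign. The median over the 10 genes went from 0.38 to -0.06, with 4 of 10 above 0. Bsn had a log2 fold change of 0.30 ± 0.15 (SE), Erc1 0.15 ± 0.06, Erc2 0.14 ± 0.07 and Pclo 0.10 ± 0.08, and the other 6 lay between -0.23 and -0.04. In that fit 0 genes of all 16303 were called in edgeR's test, with 1864 at an unadjusted p under 0.05. A different correction, which removed each library's own trend on transcript length and GC content, left 2501 genes called (15.3%), and a median of 0.03 over the scaffold genes. Bsn (0.43 ± 0.11) and Erc1 (0.41 ± 0.08) were then among the genes called higher, Ppfia3 (-0.36 ± 0.10) was among those called lower, and Pclo and Unc13a were no longer called. Erc2 was then at -0.03 ± 0.09. With the form of the library name as the covariate instead, 12.3% of all genes and 3 of the 10 (Bsn, Pclo and Erc1, each higher) were called. Since the slope itself differed between the treatment groups, a treatment difference and the length dependence of the libraries cannot be told apart for these genes.

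Within the 15 mice of the SAMP8 name form the log2 fold change was 1.42 ± 0.39 for Bsn, 0.88 ± 0.26 for Erc1 and -0.07 ± 0.18 for Rims1, with 9 of 10 genes above 0. Within the 6 mice of the SAMP form it was 0.78 for Bsn, and 10 of 10 were above 0. In each subset edgeR called 0 of all genes (5797 and 532 at an unadjusted p under 0.05). The name form itself, with sex and treatment in the model, gave a difference for 0 of the 10 scaffold genes, where 0.0491% of all genes were called and 0 of the 10 had an unadjusted p under 0.05. Limma/voom and DESeq2 also called 0 of the 10. All 10 were higher in the SAMP form, with a median log2 fold change of 0.15. Of the 3891 long genes 64.9% were higher in that form (median 0.06), and of all genes 48.4%. Of the 10 scaffold genes Erc2 had the smallest p for the name form (log2 fold change 0.14 ± 0.07, edgeR adjusted p = 0.486).

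**Figure D4:**
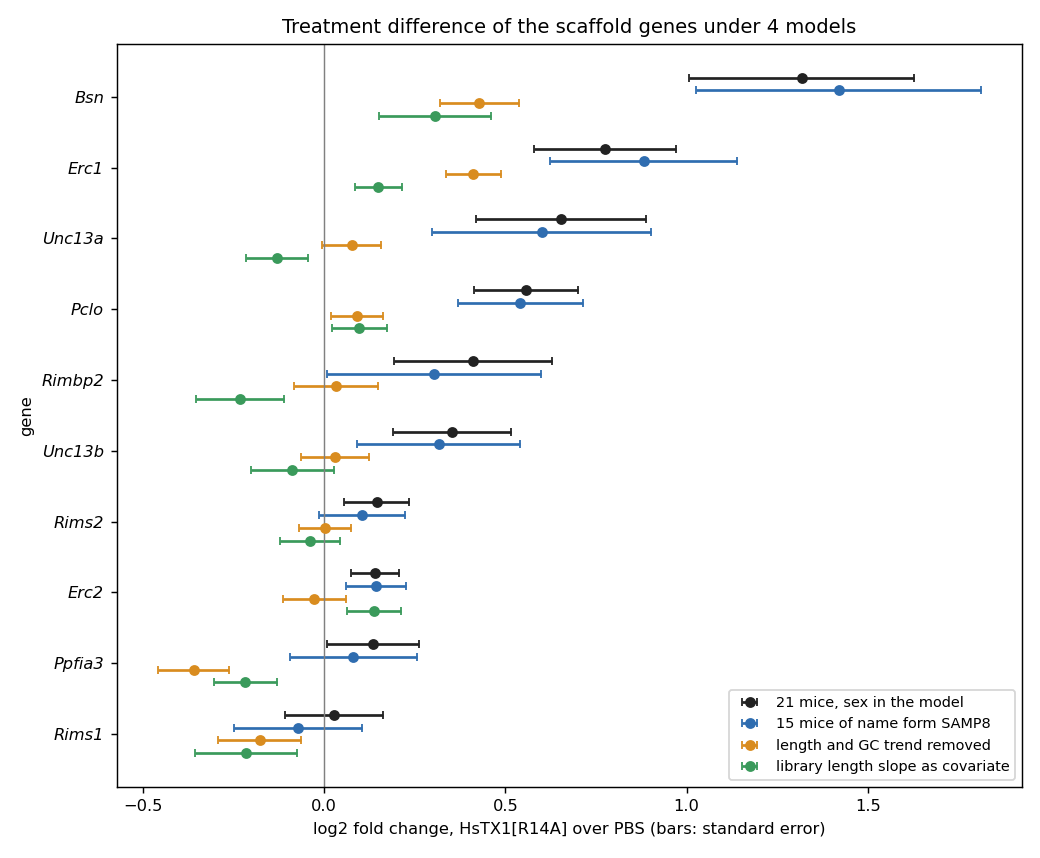
Log2 fold change between HsTX1[R14A] and PBS mice for the 10 scaffold genes, with standard errors, from 4 edgeR models: all 21 mice with sex, the 15 mice of the SAMP8 name form, counts with each library's trend on length and GC content removed, and the length slope of the library as a covariate. The values for Bsn go from 1.32 and 1.42 in the first 2 models to 0.43 and 0.30 in the last 2, and those for Erc2 stay between -0.03 and 0.14.

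Sex, which played no part in choosing the genes, gave no difference past the threshold for any of them. In edgeR's test with treatment in the model 0 of 10 scaffold genes were called, where 0.0552% of all genes were. Bsn alone had an unadjusted p under 0.05 (0.0396, adjusted p = 0.446). Limma/voom and DESeq2 also called 0 of the 10. Bsn was 0.68 ± 0.31 (SE) lower in males on the log2 scale, with PBS means of 144 ± 95.0 CPM in females and 94.3 ± 32.7 CPM in males (SD, n = 6 each) and HsTX1[R14A] means of 385 ± 30.2 CPM in the 3 females and 225 ± 111 CPM in the 6 males. Pclo differed by -0.29 ± 0.14 and Unc13a by -0.42 ± 0.23, male over female, and 2 of the 10 genes (Erc2 and Ppfia3) were above 0. The 3891 long genes had a median of -0.13 in the same direction. The length slopes of the 3 HsTX1[R14A] females lay between 0.16 and 0.23, those of the 6 males of that group between -0.14 and 0.20. With the slope as a covariate 0 of the 10 genes were called for sex. The share of all genes called for sex in that fit, in limma/voom and in DESeq2 is not given here. With 0.0552% of all genes called in edgeR's test, 0 of 10 does not set the scaffold genes apart from other genes.

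The treatment difference was not shown to depend on sex. In edgeR's interaction test 0 of the 10 scaffold genes and 0 of all genes passed the threshold (0% called, with 270 genes but 0 of the 10 at an unadjusted p under 0.05), and limma/voom and DESeq2 called 0 of the 10. The treatment log2 fold change of Bsn was 1.41 ± 0.49 in females and 1.25 ± 0.42 in males. The difference of -0.16 had an approximate 95% interval from -1.44 to 1.12, which is wide. For Unc13b the values were 0.58 ± 0.25 and 0.20 ± 0.21, a difference of -0.38 with an approximate 95% interval from -1.03 to 0.27. With the sexes apart 9 of 10 genes were above 0 in females (median 0.57) and 10 of 10 in males (median 0.25). Of the 3891 long genes 75.6% were above 0 in females (median 0.26) and 74.4% in males (median 0.19). In either sex alone 0 genes of all were called (4539 and 3913 genes at an unadjusted p under 0.05).

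The paralogs of the scaffold genes were part of a list of 39 active zone partners, of which 12 rose, 3 fell and 24 did not pass (edgeR, adjusted over all genes). Over all genes 15.5% were called higher and 16.1% lower, and among the long genes 33.7% and 4.86%. Ppfia2 rose from 80.1 ± 10.4 to 92.4 ± 6.34 CPM (SD, n = 12 and 9, log2 fold change 0.21 ± 0.07, edgeR adjusted p = 0.0364) and Ppfia4 from 48.2 ± 13.7 to 65.2 ± 16.4 CPM (0.47 ± 0.16, edgeR adjusted p = 0.0338), both liprin-alpha genes like Ppfia3. The other liprin genes did not pass, with log2 fold changes of 0.01 ± 0.10 for Ppfia1 and 0.19 ± 0.11 for Ppfibp1. The genes of the short RIM proteins, Rims3 (0.27 ± 0.17) and Rims4 (0.36 ± 0.17), the Munc13 gene of cerebellar neurons Unc13c (-0.05 ± 0.14) and the RIM-binding protein gene Tspoap1 (listed under its older symbol Bzrap1, 0.21 ± 0.18) did not pass either.

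Elsewhere on that list the genes with the smallest p were Kif1b, Trio and Ptprf. Kif1b, a kinesin motor that carries synaptic vesicle precursors, rose from 420 ± 105 to 586 ± 120 CPM (log2 fold change 0.51 ± 0.14, edgeR adjusted p = 0.0199). Trio, a guanine nucleotide exchange factor, rose by 0.73 ± 0.21 (adjusted p = 0.0200), and Ptprf, a receptor phosphatase that binds liprins, by 0.66 ± 0.21 (adjusted p = 0.0255). The 3 that fell were Lin7c (-0.30 ± 0.10, adjusted p = 0.0317), a small adaptor of the CASK complex, the ubiquitin ligase gene Siah1a (-0.24 ± 0.08, adjusted p = 0.0347) and the Rab3-binding exchange factor Rab3il1 (-0.24 ± 0.09, adjusted p = 0.0498).

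Of 25 genes of vesicles and membrane fusion 13 rose and 0 fell, where 15.5% of all genes were called higher and 16.1% lower. Nsf, the ATPase that takes SNARE complexes apart, rose from 493 ± 107 to 680 ± 94.6 CPM (log2 fold change 0.48 ± 0.12, edgeR adjusted p = 0.0163) with 9 of 9 HsTX1[R14A] mice above the PBS median. The calcium sensor gene Syt2 rose from 30.4 ± 11.2 to 54.4 ± 18.8 CPM (0.88 ± 0.22, edgeR adjusted p = 0.0171) and the synapsin gene Syn3 from 3.59 ± 1.40 to 6.23 ± 2.10 CPM (0.85 ± 0.22, edgeR adjusted p = 0.0176). Of 10 presynaptic calcium channel genes 6 rose and 0 fell. These included the pore subunits of the N, R and P/Q types, Cacna1b (0.79 ± 0.23, adjusted p = 0.0203), Cacna1e (0.68 ± 0.21, adjusted p = 0.0238) and Cacna1a (0.74 ± 0.26, adjusted p = 0.0351).

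Of 16 postsynaptic scaffold genes, which lie on the other side of the synapse, 2 rose and 0 fell. Over all genes tested 15.5% were called higher and 16.1% lower. The 2 that rose were Dlg3 (0.30 ± 0.10, edgeR adjusted p = 0.0258) and Shank2 (0.76 ± 0.26, edgeR adjusted p = 0.0333), and 14 of the 16 had log2 fold changes above 0. Over the 4 lists together 33 of 90 genes rose and 3 fell, with a median log2 fold change of 0.25. With the length slope as a covariate 0 of the 90 were called, as within the 15 mice of the SAMP8 form. Leaving out PBS mouse 90 left 12 higher and 0 lower, and leaving out HsTX1[R14A] mouse 93 left 38 higher and 3 lower. The calls over all genes moved in the same way. Without PBS mouse 90 1259 of 16302 genes were called higher and 1030 lower, and without HsTX1[R14A] mouse 93 3274 and 3340.

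In a whole brain, fewer cells of a type and less RNA per cell cannot be told apart. Of 13 neuron markers (3 of them also on the vesicle list) 3 rose and 0 fell, and their summed level ran from 7210 to 10535 CPM in PBS mice and from 8719 to 12192 CPM in HsTX1[R14A] mice. Of the markers of other cells, 3 of 8 astrocyte genes, 4 of 8 oligodendrocyte genes and 3 of 8 microglia genes fell and 0 rose, while 1 of 8 endothelium genes rose. Over all genes tested 15.5% were called higher and 16.1% lower. The share called lower was 40.1% with transcripts up to 1000 bases, 19.5% between 2000 and 3000 bases and 1.78% above 10000 bases. The summed levels were 2521 to 4279 against 2652 to 4370 CPM for astrocytes, 4454 to 6835 against 3386 to 4981 CPM for oligodendrocytes, 365 to 523 against 309 to 458 CPM for microglia, and 75.1 to 145 against 91.8 to 166 CPM for endothelium. For choroid plexus (67.7 to 1121 against 58.2 to 829 CPM) 0 of 6 genes, for erythrocytes (5.82 to 157 against 15.1 to 87.6 CPM) 0 of 5 and for nuclear long noncoding RNA (3110 to 7285 against 3550 to 8742 CPM) 0 of 5 passed. No marker but 1 of the 5 erythrocyte genes was at 0 in any mouse. The part of cell makeup in the differences of the scaffold genes was not tested.

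The genes most like Bsn over the 12 PBS mice, by the Pearson correlation of log2 CPM among 16302 genes, were Pom121 (r = 0.988), Mtor (0.986), Cacna1i (0.984), Map1a (0.984) and Hip1r (0.983), whose longest transcripts run from 5580 to 11825 bases. Of the other scaffold genes Pclo came closest (0.969, rank 71), then Unc13a (0.956, rank 261) and Erc1 (0.952, rank 337). Rimbp2 (0.824), Unc13b (0.791), Ppfia3 (0.783), Rims2 (0.668), Rims1 (0.522) and Erc2 (0.278) were less alike. The correlation with Bsn was at least 0.9 in 1363 genes. These correlations are descriptions, and the 12 points share the length slopes of their libraries.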

How the data were processed

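RNA from whole brains of 21 SAMP8 mice was sequenced, 1 library per mouse. Per the labels the kit was SMARTER, while the methods of the study name an MGI directional kit. The authors aligned reads to GRCm38 with STAR, quantified with Salmon and deposited unnormalized estimated counts for 16318 genes, whose selection is not described in the sources used here. Whole numbers, within 0.01, made up 90.5% of the values, and the rest were rounded. Not used were 53 other per-sample columns (37 of CPM, 16 of counts) and the authors' log2 fold changes, p-values and FDR values. 

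The genes and lists were chosen with earlier results of these data known. The quasi-likelihood test of edgeR 4.0.16 (R 4.3.3) was run on the 16303 genes that filterByExpr kept, with TMM scaling and a model of treatment and sex. Adjustment was over all genes (Benjamini-Hochberg, threshold 0.05). Sex, the interaction and the form of the library name were tested in the same way. Log2 CPM carried a prior count of 2. Lengths came from GENCODE (99.5% of genes). Standard errors are the log2 fold change over the square root of F. Correlations, sign-flip tests and promoter searches used Python 3.11.15 with scipy 1.17.1. P-values measure the spread between mice.

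Named were the 10 scaffold genes, their paralogs, in each of 4 partner lists the 3 genes with the smallest p in each direction among those that passed, and the 5 genes most like Bsn in PBS mice. Alternatives were limma/voom (limma 3.58.1), DESeq2 1.42.0, RLE scaling, 2 other count filters, no sex term, name form or length slope as covariate, removal of a loess trend (span 0.5) on length and GC content, the mice of 1 name form only, and leaving out single mice. Both covariates together were added after seeing the data.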

Additional observations from a re-analysis of the deposited data

How the results depend on the processing

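The treatment groups share no mouse number, so no mouse could be paired with itself. The study assigned mice to peptide or PBS at random within each cage. The sample titles give no cage, so cage could not be put in the model. Total counts limit the precision of none of the 10 scaffold genes as much as the spread between mice does. Of the 10, 4 were called under limma/voom, DESeq2, RLE scaling and both other filters, as reported. Of all 16303 genes 5201 were called under limma/voom, 6145 under DESeq2 and 5272 under RLE scaling. With no filter beyond 1 count in total 5139 of 16317 were called, and with at least 10 counts in every mouse 5256 of 14228. Nothing is read from the counts of scaffold genes, which were chosen by this difference. Without the sex term and with the name form as covariate 3 of the 10 were called, all higher. With the length and GC trend removed 3 were called, Bsn and Erc1 higher and Ppfia3 lower. None was called with the length slope as covariate, with both covariates, in the 15 mice of form SAMP8 or in the 6 of form SAMP (0 in each). Leaving out 1 mouse gave 3 to 5.

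The count over all genes was 2984 without the sex term, 1999 with the name form, 2501 with the trend removed, 0 with the slope, with both covariates and in each name form alone, and 2289 (without PBS mouse 90) to 6614 (without HsTX1[R14A] mouse 93) when 1 mouse was left out. Partner genes called higher numbered 17 without the sex term, 12 with the name form, 15 with the trend removed, 0 in the other 4 and 12 to 38 with 1 mouse left out. Those called lower numbered 4 with the trend removed, 0 without the sex term, with the name form and in the same 4, and 0 to 3 with 1 mouse left out.

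The median log2 fold change of the scaffold genes reversed to -0.063 with the slope and to -0.061 with both covariates, and ran from 0.31 to 0.49 with 1 mouse left out. With the slope Rims1 reversed to -0.21, Rims2 to -0.039, Rimbp2 to -0.23, Unc13a to -0.13, Unc13b to -0.088 and Ppfia3 to -0.22, and with both covariates these were -0.22, -0.040, -0.22, -0.14, -0.081 and -0.22. With the trend removed Rims1 was -0.18, Erc2 -0.027 and Ppfia3 -0.36. Rims1 was -0.0061 with the name form and -0.072 in the 15 mice, and ran from -0.024 to 0.075 with 1 mouse left out. The cause of these changes was not tested. The counts of scaffold genes called for sex, interaction and name form stayed at 0 in every alternative run, the interaction not being fitted in the 6 mice. The main fits called 0.0552%, 0% and 0.0491% of all genes for these terms. For the alternatives that share is not given here, so the counts of 0 do not set the scaffold genes apart from other genes. The relations to the length slope kept direction and side of the threshold under a prior count of 0.5, RLE scaling and the 10 PBS mice of form SAMP8.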
